A study of Mus musculus with 21 samples.

Results

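A set of 38 genes of the p53 pathway and the BCL2 family was examined in mouse pluripotent cells kept in culture and in epiblasts taken from embryos. The genes were found in the deposited count table by their symbols, and 38 of 38 were present among the 33861 genes listed. The set was chosen by pathway, and selected on 1 measured value, the near loss of Pmaip1 in FS cells against E6.0 epiblasts. Values of that contrast are therefore given as a description, with no test, and a test of Pmaip1 is given only for E5.5 against E5.0.

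The set holds p53 and its regulators (Trp53, Mdm2, Mdm4, Trp73), 13 targets that act on the cell cycle or on stress, 4 genes of the death receptor side and the membrane, 4 pro-survival BCL2 genes, 3 pore-forming effectors, 8 BH3-only genes and 2 apoptosome genes. As background, p53 is a transcription factor that is kept low by MDM2 and MDM4 and is stabilised by stress, after which it raises genes that stop the cell cycle, repair damage or start apoptosis. In the mitochondrial route to apoptosis, BH3-only proteins relieve the block that pro-survival BCL2 proteins put on BAX and BAK1, whose pores release cytochrome c and so let APAF1 activate caspase-9. Epiblast cells shortly after implantation are known to be close to the threshold for apoptosis.

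RNA sequencing covered 21 samples. FS cells are labelled as formative stem cells. They grew in the medium A3XR and came from 2 lines, sampled at passages 10, 11 and 18 (line 1) and at passages 12, 13 and 16 (line 2). AF and AFX cells were epiblast stem cells (EpiSCs) with E14, a mouse embryonic stem cell line, in their sample names, grown in media of the groups' own names and each sampled at passages 14, 15 and 16. Every cultured sample held 1000 cells. Epiblasts were collected singly at embryonic days 5.0, 5.5 and 6.0 (3 embryos each). The oldest stage is called E6.0 here after the sample titles, although another label field gives E6.5. No genetic change or drug treatment is named for any group. Passages of a line are not separate derivations, so the spread within AF, AFX or an FS line is that between passages, and FS cells differ from AF and AFX cells in both line and medium.

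Library totals ran from 7753188 to 15916800 counts in FS, 7768822 to 10960885 in AF, 7703118 to 13965234 in AFX, 5827093 to 9391906 at E5.0, 9510145 to 11740260 at E5.5 and 7847469 to 13006656 at E6.0. In each of the 21 pairs of libraries from 1 group or line the counts differed by more than sampling noise, with a chi-square of 5.19 to 32.2 per degree of freedom. Summed levels of 8 pluripotent epiblast markers, Pou5f1 and Nanog among them, were 1236 to 2812 CPM in culture and 4003 to 7043 CPM in epiblasts. Each of the 8 passed 3 counts in at least 1 sample of every group, though Tdgf1, a Nodal co-receptor, averaged 1.54 CPM in FS against 125 at E5.5. Levels below are CPM, the count of a gene divided by its library's size, after TMM scaling over the 21 samples, and calls are an adjusted p under 0.05 in edgeR's quasi-likelihood test (Benjamini-Hochberg over all genes tested, two-sided). Fold changes are on the log2 scale with their standard error (SE). A CPM value does not allow for gene length, so levels are compared between samples and not between genes. In bulk RNA, fewer cells that express a gene and less RNA per cell cannot be told apart.

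The promoters of 7 members are shown because they carry the p53 response element decamer and belong to genes called in FS cells against E5.5 epiblasts. This choice was made after their values were seen. The search used the p53 decamer consensus, which is its own reverse complement, so 1 scan covers both strands, in windows of 250 bases before and 50 after each RefSeq start (GRCm38.p6). Of the 38 members 32 had a window, and 10 of those 32 (31.25%) held the decamer at 1 or more starts, against 2582 of 27025 genes (9.554%). The 3 not printed, which were not called in FS, are Gadd45a, Aen and Ei24. Members had 1.44 starts each and all genes 1.22. Counted by start, 11 of 46 (23.9%) held it, against 2745 of 32851 (8.36%). The set was chosen by pathway and holds known p53 targets, so either excess could follow from that choice. A pair of decamers at most 13 bases apart was found in 1 member, Cdkn1a, with 12 bases between them, and in 20 of the 27025 genes (0.074%). Capitals mark the decamers. Sequences run 5′ to 3′ on the gene's strand and end at the start, except that 3 bases of Cdkn1a and 25 of Ccng1 inside an annotated exon are left out. The windows lie at chr17:29090729-29090975 (plus strand), chr11:40755312-40755536 (minus), chr10:117710759-117711008 (minus), chr10:41887189-41887438 (plus), chr11:69580109-69580358 (plus), chr7:45466899-45467148 (minus) and chr2:118544588-118544837 (minus).
Cdkn1a: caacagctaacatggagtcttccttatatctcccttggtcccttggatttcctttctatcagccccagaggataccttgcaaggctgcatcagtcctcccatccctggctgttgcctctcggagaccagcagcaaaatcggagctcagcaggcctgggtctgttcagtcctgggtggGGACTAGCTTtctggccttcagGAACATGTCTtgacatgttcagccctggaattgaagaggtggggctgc
Ccng1: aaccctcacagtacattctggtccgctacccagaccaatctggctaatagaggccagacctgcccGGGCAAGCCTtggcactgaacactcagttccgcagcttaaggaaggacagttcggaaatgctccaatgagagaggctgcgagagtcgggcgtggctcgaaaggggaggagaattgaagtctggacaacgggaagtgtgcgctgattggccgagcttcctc
Mdm2: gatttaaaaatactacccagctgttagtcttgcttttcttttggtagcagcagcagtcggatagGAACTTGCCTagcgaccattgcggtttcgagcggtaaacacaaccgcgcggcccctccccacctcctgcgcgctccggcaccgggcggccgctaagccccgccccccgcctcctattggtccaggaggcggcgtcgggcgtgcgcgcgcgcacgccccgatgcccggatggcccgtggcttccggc
Sesn1: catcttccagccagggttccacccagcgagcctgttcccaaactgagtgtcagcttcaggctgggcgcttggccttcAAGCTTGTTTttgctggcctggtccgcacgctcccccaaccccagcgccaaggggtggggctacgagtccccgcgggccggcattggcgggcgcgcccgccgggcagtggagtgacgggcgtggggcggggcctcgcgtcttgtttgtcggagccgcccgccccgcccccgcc
Trp53: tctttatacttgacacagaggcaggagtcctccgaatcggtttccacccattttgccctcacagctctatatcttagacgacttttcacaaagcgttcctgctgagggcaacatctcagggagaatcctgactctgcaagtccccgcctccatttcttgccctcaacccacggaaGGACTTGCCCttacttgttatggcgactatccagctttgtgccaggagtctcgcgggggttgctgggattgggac
Bax: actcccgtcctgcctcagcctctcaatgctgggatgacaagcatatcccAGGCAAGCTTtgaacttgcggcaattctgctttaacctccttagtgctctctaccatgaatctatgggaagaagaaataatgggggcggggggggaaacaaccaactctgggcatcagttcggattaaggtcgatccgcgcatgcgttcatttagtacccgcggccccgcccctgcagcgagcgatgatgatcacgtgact
Bmf: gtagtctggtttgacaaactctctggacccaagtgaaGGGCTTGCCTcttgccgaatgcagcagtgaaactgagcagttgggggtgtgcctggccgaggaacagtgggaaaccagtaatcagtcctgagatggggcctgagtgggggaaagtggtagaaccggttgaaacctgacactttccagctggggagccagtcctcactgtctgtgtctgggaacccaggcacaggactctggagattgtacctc
The first base of the decamer lay at -73 and -51 from the start in Cdkn1a, -185 in Ccng1, -186 in Mdm2, -173 in Sesn1, -75 in Trp53, -201 in Bax and -213 in Bmf. The windows of Sesn1 and Bmf lie inside the gene, before an inner start. Cdkn1a, Ccng1, Mdm2 and Sesn1 were higher in FS cells than in E5.5 epiblasts and Trp53, Bax and Bmf were lower. A match of letters is a description and not a binding site.

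Pmaip1 (ENSMUSG00000024521, chr18:66458533-66465565, plus strand), which encodes the BH3-only protein NOXA, a known p53 target that neutralises MCL1, was almost absent in culture and abundant in every epiblast. The 6 FS samples held 11 counts of it in all, from 0 to 0.422 CPM with a median of 0.163. AF cells were at 1.97, 0.791 and 0.557 CPM at passages 14, 15 and 16, from 31 counts. AFX cells were at 0.0671, 0.125 and 0.0831 CPM, from 1 count in each sample.

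Epiblasts held Pmaip1 at 48.0, 44.1 and 80.9 CPM at E5.0, at 93.4, 62.1 and 95.0 CPM at E5.5 and at 139, 157 and 147 CPM at E6.0. No cultured sample came near any epiblast, and the 3 E6.0 embryos lay above the 6 younger ones. Pmaip1 passed the filter on low counts only through the epiblasts, where it is high, so culture against epiblast is given with no test, as the ratio of summed counts relative to library size. It was 82.4 for E5.5 over AF (exact 95% interval 57.9 to 121.5) and 983 for E5.5 over AFX (336 to 4769). As a description, with no interval, it was 539.6 for E5.5 over FS and 952 for E6.0 over FS, the contrast that prompted the set. The intervals for AF and AFX cover counting error only.

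Between E5.0 and E5.5 Pmaip1 was not called (0.52 ± 0.22 on the log2 scale, adjusted p 0.186), and the samples overlapped. From E5.0 to E6.0 the group mean went from 57.7 ± 20.2 to 148 ± 8.85 CPM (SD, n = 3 each), given here with no test. Within culture Pmaip1 lay below the filter on low counts and had no test. The AF samples, at 0.557 CPM or more, were all above the 6 FS and 3 AFX samples, none of which passed 0.422 CPM.

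**Figure D1:**
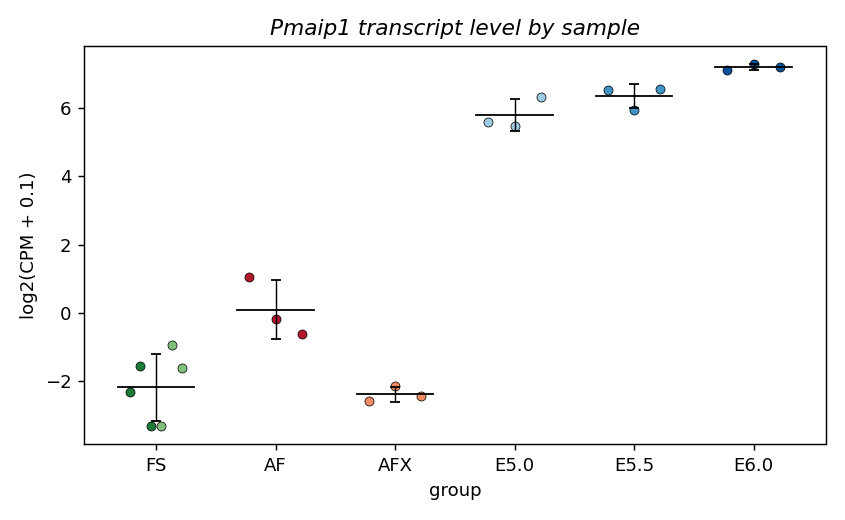
Pmaip1 level on a log2(CPM + 0.1) scale (vertical axis) in each sample of the 6 groups (horizontal axis); points are samples, with dark green for FS line 1 and light green for FS line 2, the line is the group mean and the bars are the SD. Cultured samples lie at or below 1.97 CPM, and the epiblasts between 44.1 and 157 CPM.

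The comparison of cultured cells with E5.5 epiblasts asks how the pathway differs between cells in a dish and the epiblast, with the middle stage as the reference. Most members that could be tested differed, more often higher in culture than lower. Fas passed the filter only through the cultured samples and Pmaip1 only through the epiblasts, so that both had to differ, and they are left out of the counts. In AF cells 27 of 34 members were called, 20 higher and 7 lower, where 39.3% of all genes tested were called, 20.6% higher and 18.7% lower. For AFX cells the count was 28 of 34, 22 higher and 6 lower, against 37.3% of all genes, 19.7% higher and 17.7% lower. FS cells gave 28 of 34, 20 higher and 8 lower, against 43.8%, 23.0% higher and 20.8% lower. The median log2 fold change over these members was 0.80 in AF, 1.07 in AFX and 0.96 in FS, where all genes had 0.06, 0.07 and 0.08.

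These comparisons share the same 3 E5.5 embryos, so they are not independent of each other. Gdf15 and Bik did not pass the filter and were not tested. Gdf15, a secreted stress factor, was at 0.633 CPM or less in every sample, and Bik, a BH3-only gene, at 1.36 CPM or less. Of the calls, 16 of 27 in AF, 16 of 28 in AFX and 21 of 28 in FS were made under every alternative tried. E6.0 in place of E5.5 was tried for AF and AFX only, and each FS line alone for FS only. The FS share is therefore not on equal terms with the others. Cultured samples had a lower mitochondrial share of counts (4.26% to 5.78%) than epiblasts (6.31% to 8.95%). The share of counts in 5 abundant rRNA-like loci, 2 of them mitochondrial, was 19.9% to 24.5% in FS and 23.9% to 24.9% in AFX, below E5.5 at 26.1% to 27.8%, and 25.3% to 28.4% in AF, which overlaps E5.5. The part of either share in the result was not tested. Summed levels of 8 feeder fibroblast markers were 223.66 to 269.69 CPM in AF, with none of the 8 at 3 counts or fewer in every sample, 19.5 to 51.0 in FS, 31.5 to 55.9 in AFX and 9.98 to 23.5 in the epiblasts, with 1 of the 8 at 3 counts or fewer in every FS sample and 2 in every AFX sample. Summed levels of 8 markers of extraembryonic ectoderm and trophoblast were 21.2 to 37.5 CPM in AF, 1.85 to 6.02 in FS, 4.12 to 8.81 in AFX and 7.003 to 9.40 at E5.5. Of these 8, 2 were at 3 counts or fewer in every AF sample, 4 in every FS sample, 4 in every AFX sample and 3 in every E5.5 embryo. Summed levels of 8 visceral endoderm markers were 19.96 to 56.2 CPM at E5.5 and 0.794 to 4.92 in culture, with 1 of the 8 at 3 counts or fewer in every E5.5 embryo, 6 in every FS sample, 4 in every AF sample and 4 in every AFX sample. The pluripotent epiblast markers summed to 5074 to 5580 CPM at E5.5 and to less in culture, as given above. That sum was mostly Dnmt3b, at a mean of 4168 CPM at E5.5, 1546 in FS, 785 in AF and 1233 in AFX. Means of Pou5f1, Otx2, Utf1 and Tdgf1 were also lower in each cultured group. Means of Nanog, Sox2 and Fgf5 were higher there, with Nanog at 9.62 CPM at E5.5, 20.4 in FS, 51.3 in AF and 24.5 in AFX. The part of these lists in the results was not tested.

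**Figure D2:**
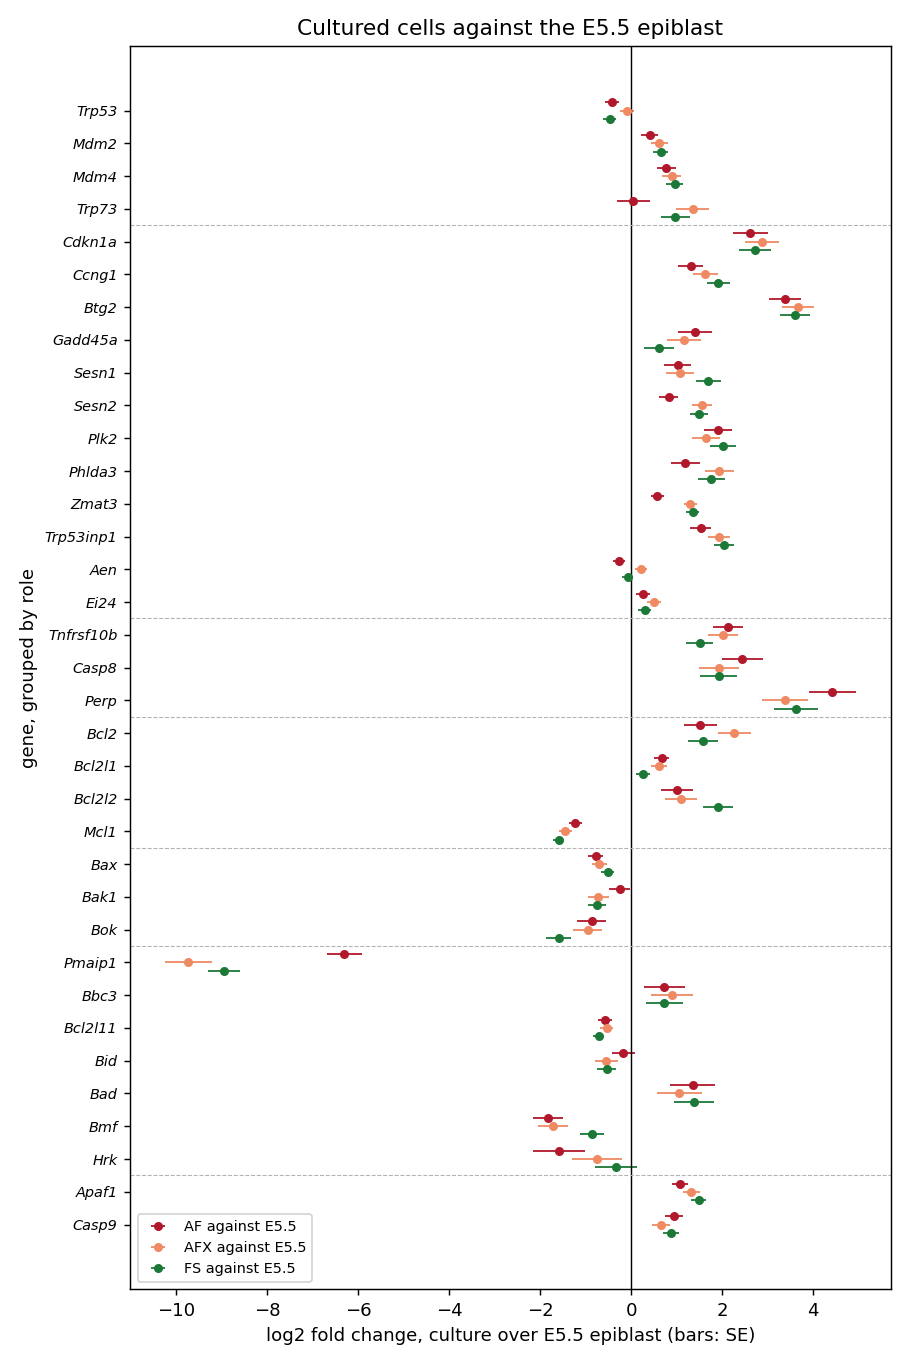
Log2 fold change of each member in FS, AF and AFX cells against E5.5 epiblasts (horizontal axis, log2 scale) by gene (vertical axis); points are edgeR estimates and bars their SE, and Fas, Gdf15 and Bik are left out because counts were absent or too few. The targets from Cdkn1a to Plk2 lie to the right of 0 in the 3 groups, and Bmf, Mcl1, Bax and Bok to the left. Pmaip1 is drawn as a description only. It had few counts in culture, passed the filter only through the epiblasts and is the gene that prompted the set, so its points and SE are no test.

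Trp53 itself was not higher in culture. FS cells ran from 77.4 to 96.4 CPM with a median of 89.5, AF cells were at 100.5, 67.6 and 107, AFX cells at 90.6, 138 and 116, and E5.5 epiblasts at 112, 117 and 138. Every FS and AF sample lay below every E5.5 embryo. Trp53 fell by 0.47 ± 0.14 on the log2 scale in FS (adjusted p 0.00706) and by 0.42 ± 0.16 in AF (adjusted p 0.0402), while in AFX the value was -0.09 ± 0.16 (adjusted p 0.677). Without AF passage 15, the lowest AF sample, the AF value was -0.24 (adjusted p 0.252). The AF call was also lost without E5.5 embryo 2 (-0.46, adjusted p 0.0625) or 3 (-0.32, adjusted p 0.17), with DESeq2 size factors (adjusted p 0.054), by the DESeq2 Wald test (adjusted p 0.0519), with the 2 groups alone (adjusted p 0.0953) and against E5.0 or E6.0, and so was made in 4 of 12 alternatives. The FS call was lost without embryo 3 (-0.37, adjusted p 0.0673) and against E5.0 (-0.27, adjusted p 0.0993).

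The main inhibitors of p53 were higher in culture, except that Mdm2 was not called in AF. Mdm2, the ubiquitin ligase that p53 itself induces, ran from 75.8 to 134 CPM in FS with a median of 91.9, and was at 88.4, 97.7 and 105 in AFX, 66.5, 95.4 and 90.4 in AF, and 63.7, 53.4 and 72.6 at E5.5. FS and AFX samples lay above all E5.5 embryos, and AF passage 14 lay within their range. The log2 fold change was 0.65 ± 0.17 in FS (adjusted p 0.00321), 0.62 ± 0.19 in AFX (adjusted p 0.0129) and 0.41 ± 0.19 in AF (adjusted p 0.0863). The AFX call was lost without E5.5 embryo 2 (0.48, adjusted p 0.0876), and the FS call with FS line 1 alone (0.41, adjusted p 0.0568).

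Mdm4, which binds p53 and blocks its activation domain, was at 68.4, 59.0 and 64.4 CPM at E5.5. It ran from 98.4 to 154 in FS with a median of 126, and was at 90.8, 150.1 and 86.1 in AF and 129.5, 123 and 104 in AFX. All cultured samples were above the embryos, with log2 fold changes of 0.96 ± 0.19 in FS (adjusted p 0.000252), 0.77 ± 0.21 in AF (adjusted p 0.00519) and 0.89 ± 0.21 in AFX (adjusted p 0.00186). The AF value dropped to 0.47 (adjusted p 0.0676) without AF passage 15.

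Trp73, a p53 relative, separated the EpiSC media. AFX cells at 18.7, 19.997 and 15.2 CPM and FS cells from 9.07 to 18.4 (median 13.9) lay above E5.5 epiblasts at 5.99, 8.60 and 6.53. AF cells, at 7.77, 4.66 and 9.37, did not. The log2 fold changes were 1.35 ± 0.36 in AFX (adjusted p 0.00504), 0.97 ± 0.32 in FS (adjusted p 0.0176) and 0.05 ± 0.36 in AF (adjusted p 0.936). The FS call was lost without E5.5 embryo 1 (0.87, adjusted p 0.0722) or embryo 3 (0.92, adjusted p 0.065), and with FS line 2 alone (0.65, adjusted p 0.161).

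Most targets of p53 that act on the cell cycle and on stress were called higher in culture, and none was called lower. Of the 12 tested (Gdf15 was not), 10 rose in AF, 11 in AFX and 9 in FS, where 20.6%, 19.7% and 23.0% of all genes were called higher. Cdkn1a (ENSMUSG00000023067, chr17:29090976-29100727), which encodes the cyclin-dependent kinase inhibitor p21 and whose promoter pair of decamers is printed above, stood at 2.598, 3.44 and 6.16 CPM at E5.5. It was at 17.0, 30.9 and 27.7 in AF and at 31.5, 26.6 and 32.5 in AFX, and ran from 21.8 to 32.7 in FS with a median of 26.5. The lowest cultured sample, at 17.0, was well above the highest E5.5 embryo. Its log2 fold change was 2.62 ± 0.38 in AF (adjusted p 1.63e-05), 2.88 ± 0.38 in AFX (adjusted p 6.01e-06) and 2.73 ± 0.36 in FS (adjusted p 3.05e-06). E5.0 epiblasts held more Cdkn1a, at a mean of 8.95 CPM. Over the alternatives the value ran from 1.46 to 3.06 in AF, 1.72 to 3.32 in AFX and 1.57 to 3.18 in FS.

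Btg2, an antiproliferative gene, had the largest tested difference of this group. E5.5 epiblasts were at 2.15, 1.49 and 5.04 CPM, AF cells at 22.9, 46.1 and 23.7, AFX cells at 42.6, 36.0 and 33.7, and FS cells ran from 28.0 to 52.6 with a median of 33.0. There was no overlap, and the fold was 10.47 in AF, 12.7 in AFX and 12.1 in FS (adjusted p 1.98e-07, 8.08e-08 and 2.75e-08). E6.0 epiblasts held more Btg2, at a mean of 10.1 CPM. Over the alternatives its log2 fold change ran from 1.62 to 4.08 in AF and 1.89 to 4.36 in AFX. In FS, where E6.0 was not an alternative, it ran from 2.83 to 4.30.

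Ccng1, which encodes cyclin G1, a regulator of MDM2 activity, was at 50.2, 62.9 and 77.7 CPM at E5.5 and at 131, 160.0 and 181 in AF. AFX cells were at 178, 210.3 and 202, and FS cells ran from 166 to 318 with a median of 237. The groups did not overlap, and the log2 fold change was 1.31 ± 0.27 in AF (adjusted p 0.000963), 1.63 ± 0.28 in AFX (adjusted p 0.00015) and 1.91 ± 0.26 in FS (adjusted p 8.41e-06).

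Trp53inp1, a p53 cofactor in stress, was at 37.6, 27.2 and 39.5 CPM at E5.5, at 73.6, 127 and 100.1 in AF, at 119, 153 and 127 in AFX, and from 123 to 165 in FS with a median of 148. All 12 cultured samples were higher than the embryos, with a fold of 2.88 in AF, 3.81 in AFX and 4.14 in FS (adjusted p 3.69e-05, 2.83e-06 and 3.08e-07). Zmat3, an RNA-binding p53 target, rose by a fold of 1.49 in AF, 2.47 in AFX and 2.55 in FS (adjusted p 0.00324, 5.78e-07 and 5.33e-08), from 66.5 ± 5.81 CPM at E5.5 (SD, n = 3).

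Plk2, a polo-like kinase induced by stress, rose from 9.83 ± 3.80 CPM at E5.5 to 37.0 ± 3.20 in AF, 31.0 ± 0.767 in AFX (SD, n = 3 each) and 40.2 ± 10.8 in FS (n = 6), with adjusted p of 5.39e-05, 0.000245 and 7.25e-06. Phlda3, an inhibitor of AKT, rose by a fold of 2.29 in AF, 3.83 in AFX and 3.39 in FS (adjusted p 0.00524, 7.87e-05 and 5.69e-05). Its AF call was lost without passage 15, where the log2 fold change was 0.86 (adjusted p 0.0514).

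The sestrins restrain mTORC1 under stress. Sesn2 was at 50.9, 24.4 and 23.9 CPM at E5.5 and at 69.7, 47.0 and 58.6 in AF, which overlap, and at 100.3, 105 and 87.3 in AFX and 84.2 to 103 in FS (median 93.2), which do not. Its log2 fold change was 0.82 ± 0.22 in AF (adjusted p 0.00487), 1.56 ± 0.22 in AFX (adjusted p 1.16e-05) and 1.49 ± 0.20 in FS (adjusted p 3.87e-06). Sesn1 rose by 1.02 ± 0.30 in AF (adjusted p 0.00975), 1.08 ± 0.30 in AFX (adjusted p 0.00743) and 1.69 ± 0.28 in FS (adjusted p 3.94e-05), from 4.71 ± 0.770 CPM at E5.5 (SD, n = 3).

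Without AF passage 15 the AF value of Sesn1 was 0.63 (adjusted p 0.123). E5.0 epiblasts held more Sesn1, at 9.82 ± 1.09 CPM (SD, n = 3). Against E5.0 in place of E5.5 its log2 fold change was -0.04 in AF (adjusted p 0.931) and 0.02 in AFX (adjusted p 0.973). Gadd45a, a DNA damage response gene that shares 19.1% of its exonic bases with an antisense transcript, was also higher at E5.0 than at E5.5. It rose by 1.40 ± 0.38 in AF (adjusted p 0.00521) and 1.16 ± 0.38 in AFX (adjusted p 0.0176) over E5.5, with 0.61 ± 0.33 in FS (adjusted p 0.146), while against E5.0 the values were 0.23 in AF (adjusted p 0.636) and -0.001 in AFX (adjusted p 0.999). The AFX call of Gadd45a was also lost without AFX passage 15 (0.93, adjusted p 0.0894) or E5.5 embryo 1 (1.02, adjusted p 0.0702).

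Aen, a nuclease gene, was called in none of the 3 groups, with log2 fold changes of -0.27 ± 0.14 in AF, 0.22 ± 0.14 in AFX and -0.07 ± 0.12 in FS (adjusted p 0.125, 0.218 and 0.648). Ei24, an endoplasmic reticulum protein gene, was called in AFX at 0.51 ± 0.15 (adjusted p 0.0123) and had 0.25 ± 0.15 in AF and 0.30 ± 0.13 in FS (adjusted p 0.199 and 0.0795). The AFX call of Ei24 was lost without E5.5 embryo 1 (0.44, adjusted p 0.0575) or embryo 2 (0.40, adjusted p 0.0922), and against E5.0 (0.31, adjusted p 0.105).

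**Figure D3:**
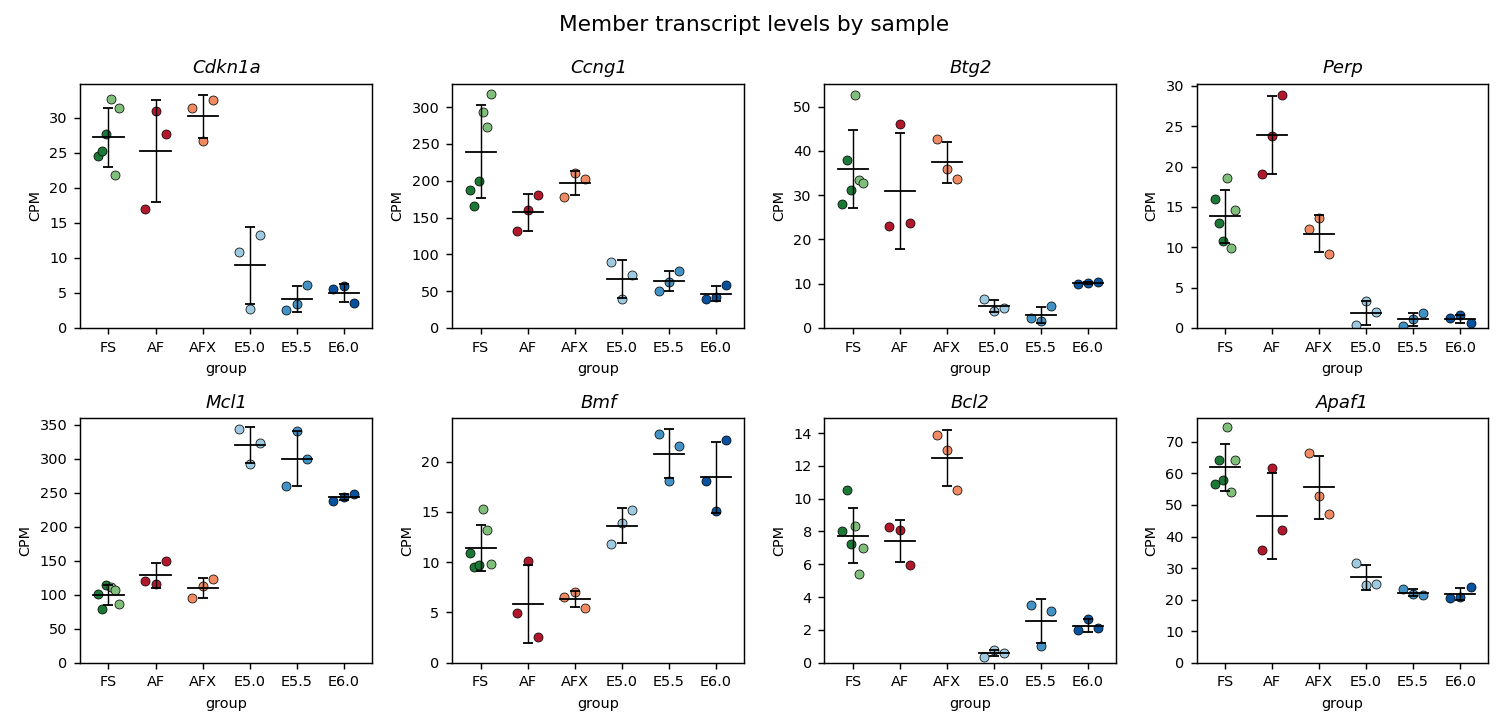
Level in CPM (vertical axis, linear, from 0) of Cdkn1a, Ccng1, Btg2, Perp, Mcl1, Bmf, Bcl2 and Apaf1 in each sample of the 6 groups (horizontal axis); points are samples, with dark green for FS line 1 and light green for FS line 2, lines are means and bars the SD. Cdkn1a lies at 17.0 CPM or more in all cultured samples and at 13.3 or less in all epiblasts, while Mcl1 lies at 149 or less in culture and at 238 or more in epiblasts.

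On the death receptor side, Perp, Tnfrsf10b and Casp8 rose in each cultured group, and Fas had counts almost only in culture. Perp, a membrane protein gene that p53 induces, was at 0.226, 1.15 and 1.87 CPM at E5.5, at 19.1, 23.8 and 28.9 in AF, at 12.3, 13.6 and 9.14 in AFX, and from 9.91 to 18.6 in FS with a median of 13.8. The groups were far apart, with log2 fold changes of 4.42 ± 0.52 in AF (adjusted p 8.92e-07), 3.39 ± 0.51 in AFX (adjusted p 2.28e-05) and 3.63 ± 0.48 in FS (adjusted p 3.2e-06).

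Fas, the receptor of FAS ligand, had no count in the E5.0 and E5.5 epiblasts and 1 count among the 3 E6.0 epiblasts. Cultured samples held it at 1.36, 1.41 and 1.58 CPM in AF, at 1.88, 0.875 and 0.416 in AFX and from 0.316 to 2.48 in FS with a median of 1.15. Taken against 3 counts per library, it was at least 4.51-fold higher in AF, 3.29-fold higher in AFX and 4.24-fold higher in FS than at E5.5. Having passed the filter only through the cultured samples, it is given with no p and is not among the calls counted above.

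Tnfrsf10b, the mouse TRAIL receptor gene, was at 5.31, 12.04 and 9.42 CPM at E5.5, at 26.1, 52.2 and 38.3 in AF, at 38.9, 40.0 and 30.0 in AFX and from 19.8 to 36.1 in FS with a median of 23.6. Every cultured sample was higher, and the fold was 4.36 in AF, 4.06 in AFX and 2.84 in FS (adjusted p 4.02e-05, 7.14e-05 and 0.00038). Casp8, the initiator caspase of the receptor route, rose by a fold of 5.45 in AF, 3.80 in AFX and 3.80 in FS (adjusted p 0.000174, 0.0017 and 0.000593), from 1.92, 1.60 and 2.15 CPM at E5.5. E6.0 epiblasts held more Casp8, at 3.68, 5.63 and 5.00 CPM, and against them the AFX value was 0.59 on the log2 scale (adjusted p 0.285).

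Among the pro-survival genes Mcl1 was lower in the 3 cultured groups, and the others were higher except Bcl2l1 in FS. Mcl1 (ENSMUSG00000038612, chr3:95658788-95663176), whose short-lived protein is the partner of NOXA, was at 259.7, 341 and 299.8 CPM at E5.5. AF cells were at 121, 115 and 149, AFX cells at 94.9, 112 and 124, and FS cells ran from 78.5 to 114 with a median of 104. No cultured sample reached the lowest epiblast of any stage. Mcl1 fell by 1.22 ± 0.14 in AF (adjusted p 9.61e-07), by 1.44 ± 0.15 in AFX (adjusted p 1.17e-07) and by 1.59 ± 0.12 in FS (adjusted p 7.72e-10), on the log2 scale.

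Bcl2 (ENSMUSG00000057329, chr1:106538178-106714274), the founding gene of the family, was at 3.50, 1.03 and 3.17 CPM at E5.5, at 8.26, 8.09 and 5.94 in AF, at 13.9, 12.998 and 10.6 in AFX and from 5.38 to 10.51 in FS with a median of 7.64. All cultured samples exceeded all E5.5 embryos. The log2 fold change was 1.52 ± 0.36 in AF (adjusted p 0.00208), 2.27 ± 0.36 in AFX (adjusted p 4.84e-05) and 1.58 ± 0.33 in FS (adjusted p 0.00053).

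Bcl2l2, which encodes BCL-W, was at 4.18, 3.44 and 7.27 CPM at E5.5 and from 11.5 to 26.4 in FS with a median of 17.3, for a log2 difference of 1.92 ± 0.33 (adjusted p 6.34e-05) with no overlap. In AF, at 6.41, 14.9 and 8.53, it was 1.00 ± 0.35 (adjusted p 0.028) with overlap, and 0.59 (adjusted p 0.239) without AF passage 15. In AFX, at 11.8, 11.5 and 8.73, it was 1.09 ± 0.35 (adjusted p 0.0179). That call was lost without AFX passage 14 (1.02, adjusted p 0.057) and without E5.5 embryo 1 (0.98, adjusted p 0.0643) or embryo 2 (0.85, adjusted p 0.101). The AF call was likewise lost without E5.5 embryo 1 (0.89, adjusted p 0.0901) or embryo 2 (0.79, adjusted p 0.128).

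Bcl2l1, which encodes BCL-XL, was called in both EpiSC groups and not in FS, with 0.67 ± 0.17 in AF (adjusted p 0.00329), 0.61 ± 0.17 in AFX (adjusted p 0.00694) and 0.27 ± 0.15 in FS (adjusted p 0.153). E6.0 epiblasts stood at 37.5 ± 2.82 CPM, above the E5.5 mean of 28.8 ± 3.42 (SD, n = 3 each). Against E6.0 the values were 0.29 in AF (adjusted p 0.186) and 0.23 in AFX (adjusted p 0.305).

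Pore-forming effectors were lower in culture or not called, and none was higher. Bax was at 29.6, 35.5 and 37.3 CPM at E5.5, at 18.7, 18.4 and 22.7 in AF, at 22.3, 19.0 and 21.7 in AFX and from 19.7 to 25.5 in FS with a median of 24.6. The groups did not overlap. Bax fell by 0.77 ± 0.16 in AF (adjusted p 0.000714), 0.70 ± 0.16 in AFX (adjusted p 0.00187) and 0.52 ± 0.14 in FS (adjusted p 0.00406). Although Bax is a known p53 target, its direction was opposite to that of Cdkn1a. Against E6.0, where Bax was at 24.7, 24.1 and 33.5 CPM, the AFX value was -0.38 (adjusted p 0.0756).

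Bok, a BAX relative, fell by 0.87 ± 0.32 in AF (adjusted p 0.0356), 0.95 ± 0.32 in AFX (adjusted p 0.0228) and 1.59 ± 0.27 in FS (adjusted p 5.98e-05), from 13.2, 12.04 and 11.9 CPM at E5.5. The AF call was lost without AF passage 14 or 16 and without any 1 of the 3 E5.5 embryos, with adjusted p of 0.0605 to 0.13. The AFX call was lost without AFX passage 16 (adjusted p 0.11) or E5.5 embryo 1 (adjusted p 0.0577). Bak1 ranged widely at E5.5, at 27.6, 42.2 and 56.9 CPM, and fell by 0.72 ± 0.23 in AFX (adjusted p 0.0168) and 0.74 ± 0.19 in FS (adjusted p 0.00337), with -0.25 ± 0.23 in AF (adjusted p 0.403). Leaving out E5.5 embryo 3 ended both calls, at -0.44 in AFX (adjusted p 0.163) and -0.46 in FS (adjusted p 0.0841), and the AFX call was also lost without AFX passage 15 or 16 (adjusted p 0.0549 and 0.0545). An antisense gene, Ggnbp1, shares 18.2% of the exonic bases of Bak1, and whether counting used strand is not given in the sources used here.

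BH3-only genes other than Pmaip1 were mostly lower or not called. Bmf, a sensor linked to the cytoskeleton, was at 22.8, 18.1 and 21.5 CPM at E5.5, at 4.93, 10.1 and 2.50 in AF, at 6.57, 6.999 and 5.49 in AFX and from 9.56 to 15.3 in FS with a median of 10.4. All cultured samples lay below the E5.5 embryos. Bmf fell by 1.82 ± 0.33 in AF (adjusted p 0.000149), 1.71 ± 0.32 in AFX (adjusted p 0.000279) and 0.87 ± 0.26 in FS (adjusted p 0.0104). Its FS call was lost with FS line 2 alone (-0.71, adjusted p 0.09) and against E5.0 (-0.26, adjusted p 0.446), where epiblasts had 13.7 ± 1.73 CPM (SD, n = 3).

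Bcl2l11, which encodes BIM, was at 75.0, 71.3 and 63.2 CPM at E5.5, at 47.8, 46.9 and 46.3 in AF, at 42.2, 53.9 and 48.1 in AFX and from 36.1 to 49.0 in FS with a median of 41.9. It fell by 0.57 ± 0.15 in AF (adjusted p 0.00414), 0.54 ± 0.15 in AFX (adjusted p 0.00649) and 0.72 ± 0.13 in FS (adjusted p 8.68e-05), with no overlap. E6.0 epiblasts were already at 49.6, 50.2 and 55.4 CPM, and against them the values were -0.14 in AF (adjusted p 0.504) and -0.11 in AFX (adjusted p 0.616).

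Bbc3, which encodes PUMA, a strong p53 target, was not called in any group. E5.5 epiblasts were at 9.94, 7.56 and 12.96 CPM, AF cells at 11.8, 32.8 and 5.84, AFX cells at 29.9, 14.6 and 12.2, and FS cells ran from 11.8 to 24.6 with a median of 16.1. Passages 15 of AF and 14 of AFX stood above the rest of their groups. The log2 fold change was 0.73 ± 0.46 in AF, 0.90 ± 0.46 in AFX and 0.73 ± 0.41 in FS (adjusted p 0.217, 0.128 and 0.156), and the AF value was -0.21 without AF passage 15.

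Bad, which links growth factor signals to BCL-XL, was the 1 BH3-only gene called higher, by 1.35 ± 0.49 in AF (adjusted p 0.0326) and 1.38 ± 0.45 in FS (adjusted p 0.0153), with 1.06 ± 0.49 in AFX (adjusted p 0.0941). Its levels were low, at 1.81, 3.55 and 0.746 CPM at E5.5, and 20.5% of its exonic bases are shared with the antisense gene Gpr137. Both calls were lost without E5.5 embryo 1 (adjusted p 0.0842 in AF, 0.0544 in FS) and without embryo 3 (adjusted p 0.152 and 0.103), and the AF call without AF passage 14 or 16 (adjusted p 0.0714 and 0.0678).

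Hrk, the BH3-only gene known from neurons, fell by 1.59 ± 0.57 in AF (adjusted p 0.0302). That call was lost on leaving out any 1 AF passage or E5.5 embryo 3 (adjusted p 0.0653 to 0.119). In AFX and FS the values were -0.75 ± 0.55 and -0.33 ± 0.46 (adjusted p 0.29 and 0.584). Bid, which caspase-8 cleaves and which shares 17.7% of its exonic bases with the antisense gene Bcl2l13, was called in FS at -0.54 ± 0.22 (adjusted p 0.0476) with overlapping samples, and had -0.17 ± 0.25 in AF and -0.55 ± 0.26 in AFX (adjusted p 0.624 and 0.0974). Without E5.5 embryo 3, the highest at 31.6 CPM, the FS value of Bid was -0.18 (adjusted p 0.563). That call was also lost without FS line 1 passage 10 or 18 or FS line 2 passage 12 or 16 (adjusted p 0.0656 to 0.0936).

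Both apoptosome genes rose. Apaf1, the scaffold that cytochrome c assembles, was at 23.4, 21.7 and 21.5 CPM at E5.5, at 35.6, 61.8 and 42.2 in AF, at 66.6, 52.9 and 47.2 in AFX and from 54.2 to 74.7 in FS with a median of 61.0. Its fold was 2.102 in AF, 2.51 in AFX and 2.80 in FS (adjusted p 8.08e-05, 7.48e-06 and 3.17e-07), with no overlap. Casp9, the caspase it activates, rose by a fold of 1.92 in AF, 1.58 in AFX and 1.84 in FS (adjusted p 0.000697, 0.0114 and 0.000356), from 12.4, 10.7 and 8.21 CPM at E5.5. The AFX call of Casp9 was lost without AFX passage 15 (adjusted p 0.0558) or E5.5 embryo 3 (adjusted p 0.0712).

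Other genes of these pathways were split in direction. Among 15 further p53 targets, 4 rose and 2 fell in AF, 3 rose and 3 fell in AFX, and 3 rose and 2 fell in FS. That is 40%, 40% and 33.3% of the list, where 39.3%, 37.3% and 43.8% of all genes were called, so the list lay near or below the share of all genes. Eda2r, a receptor of the TNF family, rose from 5.83 CPM at E5.5 to 25.3 in AF, 26.6 in AFX and 35.4 in FS (log2 fold change 2.099 ± 0.57, 2.17 ± 0.57 and 2.58 ± 0.54, adjusted p 0.00765, 0.00668 and 0.000934). Ercc5, a nuclease of excision repair, rose by 1.38 ± 0.22 in AF, 1.69 ± 0.22 in AFX and 1.96 ± 0.21 in FS (adjusted p 4.77e-05, 4.67e-06 and 1.41e-07). Sfn, which encodes 14-3-3 sigma, fell in AFX from 17.7 to 0.609 CPM (log2 fold change -4.90 ± 1.03, adjusted p 0.00149).

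Genes that passed the filter on 1 side alone, Cdkn2a and Bcl2l14, are left out of the next counts. Of 12 further p53 regulators, none rose and 6 fell in AF, 1 rose and 3 fell in AFX, and 2 rose and 5 fell in FS. That is 50%, 33.3% and 58.3% called, where 39.3%, 37.3% and 43.8% of all genes were. Chek2, a checkpoint kinase that acts on p53, fell by 0.96 ± 0.19 in AF (adjusted p 0.00034) and 0.84 ± 0.19 in AFX (adjusted p 0.00115). Atm, the kinase that senses DNA breaks, fell by 0.87 ± 0.12 in AF (adjusted p 4.43e-06). Usp7, which deubiquitinates MDM2 and p53, fell by 0.60 ± 0.08 in FS (adjusted p 6.04e-06), and Trp53bp1, a repair factor, rose there by 0.63 ± 0.12 (adjusted p 0.000236). Of 20 tested caspases and their regulators, 2 rose and 3 fell in AF, none rose and 2 fell in AFX, and 3 rose and 3 fell in FS, or 25%, 10% and 30%, each below the share of all genes. Endog, a mitochondrial nuclease, fell by 1.44 ± 0.36 in AFX (adjusted p 0.0033) and 1.23 ± 0.30 in FS (adjusted p 0.0018). Of 4 BCL2 relatives outside the set, 1 rose and none fell in each of AF, AFX and FS (25%, below the share of all genes). It was Bnip3l, a mitophagy receptor (0.68 ± 0.14, 0.63 ± 0.14 and 0.80 ± 0.12, adjusted p 0.000492, 0.00118 and 1.91e-05).

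The contrast that prompted the set, FS against E6.0, is given as values only. Besides Pmaip1, Perp had a log2 fold change of 3.59, Trp53inp1 of 2.65, Plk2 of 2.47, Cdkn1a of 2.44 and Ccng1 of 2.37, while Bok had -1.68 and Mcl1 -1.29. Values nearer to 0 were those of Gadd45a (-0.20), Casp8 (0.59), Bcl2l1 (-0.11), Bax (-0.20), Bbc3 (0.28), Bcl2l11 (-0.28), Bad (0.74) and Hrk (0.35), among others.

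Within culture, FS against AF asks how formative stem cells differ from EpiSCs. Of 36 tested members, with Pmaip1 left out, 9 were called, 7 higher and 2 lower in FS (9 higher and 6 lower by the DESeq2 Wald test, 6 higher and 5 lower with FS line 2 alone), where 19.5% of all genes were called, 8.86% higher and 10.6% lower. The median log2 fold change was 0.07 over these members and 0.02 over all genes. The 2 calls that held under every alternative were Sesn2 and Zmat3. Sesn2 ran from 84.2 to 103 CPM in FS against 69.7, 47.0 and 58.6 in AF, for a log2 difference of 0.66 ± 0.12 (adjusted p 0.00167). Zmat3 ran from 139 to 189 CPM in FS with a median of 177 against 89.0, 120.1 and 88.4 in AF, 0.76 ± 0.14 (adjusted p 0.00121). Neither gene's groups overlapped.

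Perp was lower in FS by -0.80 ± 0.20 (adjusted p 0.0116), with no FS sample above 18.6 CPM and no AF sample below 19.1. Without AF passage 16, the highest at 28.9 CPM, its value was -0.66 (adjusted p 0.0769). Trp73 was higher by 0.91 ± 0.26 (adjusted p 0.0215) with overlapping samples, and lost its call without AF passage 14 (0.96, adjusted p 0.0532) or 15 (0.67, adjusted p 0.086) and with FS line 2 alone (0.59, adjusted p 0.135). Hrk was higher by 1.25 ± 0.39 (adjusted p 0.0364), Trp53inp1 by 0.51 ± 0.15 (adjusted p 0.0311), Ccng1 by 0.59 ± 0.19 (adjusted p 0.0414) and Bcl2l2 by 0.90 ± 0.30 (adjusted p 0.0485), while Bcl2l1 was lower by -0.42 ± 0.14 (adjusted p 0.0476). Each of these 5 was no longer called when certain single samples were left out, AF passages 14 and 16 and FS line 2 passages 13 and 16 among them for all 5. AF passage 15 did so for Bcl2l1, Ccng1 and Hrk, FS line 2 passage 12 for Bcl2l2, Ccng1 and Trp53inp1, FS line 1 passage 11 for Hrk, and FS line 1 passages 10 and 18 for Bcl2l1. The adjusted p of these leave-one-out fits where the call was lost ran from 0.0552 to 0.211. With FS line 1 alone all 5 lost their call, at 0.22 for Ccng1 (adjusted p 0.324), 0.44 for Bcl2l2 (adjusted p 0.385), 0.37 for Trp53inp1 (adjusted p 0.214), 1.14 for Hrk (adjusted p 0.131) and -0.33 for Bcl2l1 (adjusted p 0.142). Without the filter or with the 2 groups alone Bcl2l1, Bcl2l2 and Ccng1 lost theirs (adjusted p 0.0583 to 0.0728), as did Bcl2l2 with DESeq2 size factors (adjusted p 0.0543). The feeder fibroblast and trophoblast markers and the rRNA-like share given above were higher in AF than in FS or AFX with no overlap. The mitochondrial share, 5.59% to 5.78% in AF, was above FS at 4.26% to 5.29% and overlapped AFX. Their part in these differences was not tested.

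AFX against AF compares media within E14 EpiSCs. It gave 5 calls among 36 tested members, 4 higher and 1 lower in AFX, where 8.73% of all genes were called, 4.30% higher and 4.42% lower. Trp73 was higher by 1.30 ± 0.29 (adjusted p 0.0117), Sesn2 by 0.73 ± 0.14 (adjusted p 0.00515), Zmat3 by 0.72 ± 0.15 (adjusted p 0.0095) and Aen by 0.49 ± 0.11 (adjusted p 0.0112), and Perp was lower by -1.04 ± 0.24 (adjusted p 0.0149). The 3 AFX samples did not overlap the 3 AF samples for any of the 5. Aen was at 140.3, 158 and 159 CPM in AFX and at 101, 110.0 and 114 in AF, and lost its call without AFX passage 15 (0.46, adjusted p 0.0515). Perp lost its call without AF passage 16 (-0.90, adjusted p 0.0607) or AFX passage 16 (-0.90, adjusted p 0.0628).

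FS against AFX gave no call among 36 tested members by edgeR, with 10 of them at an unadjusted p under 0.05, 2 calls by the DESeq2 Wald test, and 8.70% of all genes called, 3.78% higher and 4.92% lower. The nearest were Aen, lower in FS by -0.30 ± 0.09 (adjusted p 0.0529), and Bcl2, lower by -0.70 ± 0.21 (adjusted p 0.0536). For both, every FS sample lay below every AFX sample, with FS Bcl2 at 10.51 CPM or less and AFX Bcl2 at 10.56 CPM or more. For each gene the difference between its FS against AF and FS against AFX changes is the AFX against AF contrast, given above.

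Between the FS lines, 1 of 36 tested members was called, where 3.85% of all genes were, 2.65% higher and 1.20% lower in line 2. Ccng1 was at 294, 273 and 318 CPM in line 2 and at 187, 166 and 199.9 in line 1. Its log2 difference, 0.66 ± 0.12 (adjusted p 0.00662), was called under every alternative. Plk2 (0.52 ± 0.15, adjusted p 0.074), Bak1 (-0.57 ± 0.17, adjusted p 0.0828) and Bcl2l2 (0.79 ± 0.26, adjusted p 0.106) also showed no overlap between the lines but were not called.

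**Figure D4:**
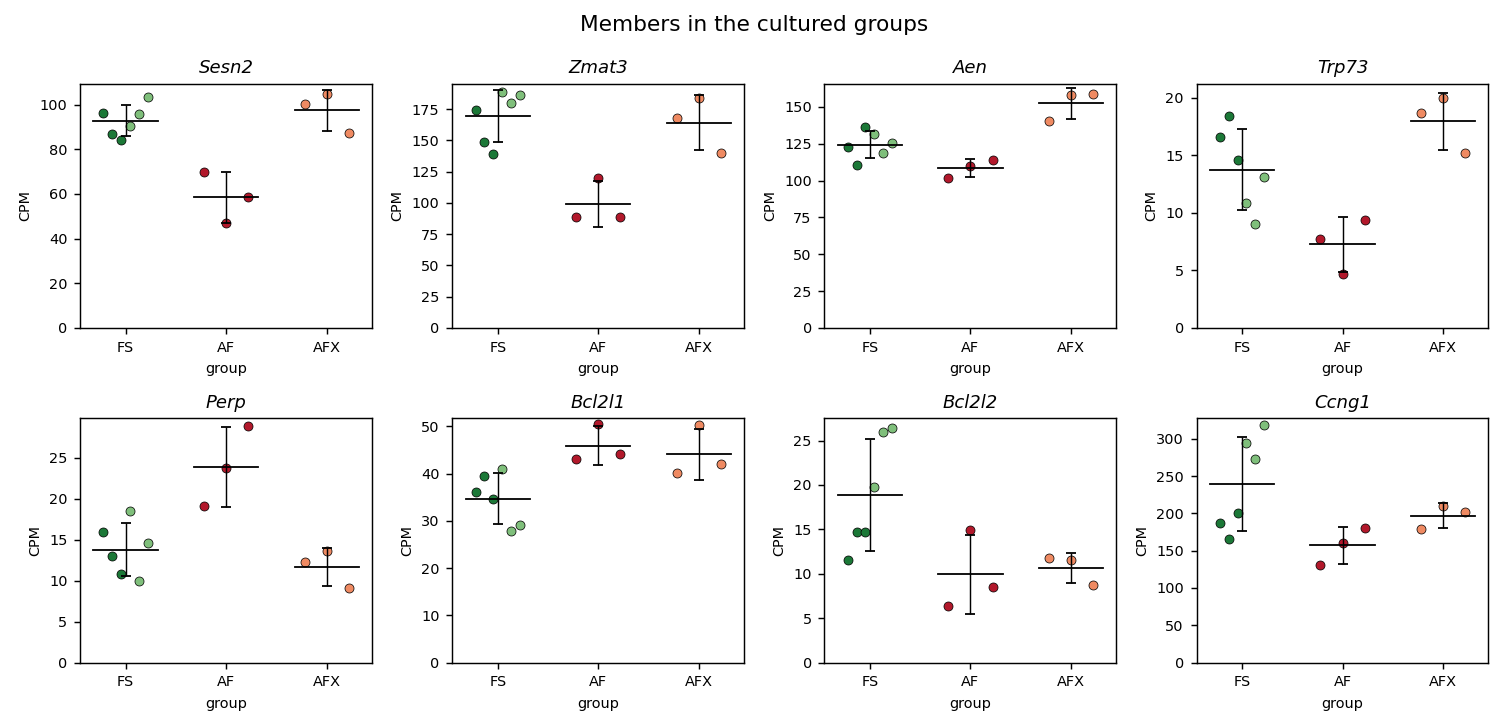
Level in CPM (vertical axis, linear, from 0) of Sesn2, Zmat3, Aen, Trp73, Perp, Bcl2l1, Bcl2l2 and Ccng1 in the cultured samples (horizontal axis, groups FS, AF and AFX); points are samples, with dark green for FS line 1 and light green for FS line 2, lines are means and bars the SD. Sesn2 and Zmat3 lie lower in AF than in FS and AFX, and Ccng1 lies higher in FS line 2 (273 CPM or more) than in line 1 (199.9 or less).

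Among the other genes of the pathways, Cdkn2a, whose ARF product inhibits MDM2, was at 3.79 CPM in AF, 0.134 in FS and without a count in the AFX samples. It passed the filter within culture only through AF, so it is given with no p and is left out of the counts. Against 3 counts per library it was at least 13.8-fold lower in AFX than in AF. Sfn was lower than in AF, at 40.7 CPM, in both FS (5.92 CPM, -2.82 ± 0.78, adjusted p 0.0294) and AFX (0.609 CPM, -6.11 ± 1.28, adjusted p 0.0151). Trp53bp1 was higher than in AF in FS (0.54 ± 0.09, adjusted p 0.000856) and AFX (0.79 ± 0.10, adjusted p 0.000577). In FS against AF, 2 further targets rose and 3 fell, 5 of 12 further regulators rose and none fell, and 1 of the 20 caspase genes, Birc2, rose (0.44 ± 0.13, adjusted p 0.0267). These are 33.3%, 41.7% and 5% of the lists, where 19.5% of all genes were called. Birc2, a ubiquitin ligase that restrains cell death, was also higher in FS than in AFX (0.93 ± 0.13, adjusted p 0.000465).

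Across the epiblast stages few members changed. E5.5 against E5.0 gave 1 call of 35 tested, a lower one, where 6.82% of all genes were called, 3.07% higher and 3.75% lower. E6.0 against E5.5 gave 1 of 34 with Pmaip1 left out, a higher one, where 4.43% were called, 1.89% higher and 2.54% lower. E6.0 against E5.0 gave 4 of 34, all lower at E6.0, where 21.8% of all genes were called, 10.2% higher and 11.6% lower. The median log2 fold change of the tested members over the whole interval was -0.24, against -0.02 for all genes. Summed levels of 8 visceral endoderm markers were 219 to 772 CPM at E5.0, 19.96 to 56.2 at E5.5 and 4.33 to 8.63 at E6.0, with 0, 1 and 3 of the 8 at 3 counts or fewer in every embryo of the stage. The mitochondrial share was 8.15% to 8.95% at E5.0, 6.31% to 7.29% at E5.5 and 7.03% to 7.36% at E6.0, with E5.0 above both later stages. The trophoblast markers summed to 34.7 CPM in E5.0 embryo 2 and to 9.40 or less in the other 8 epiblasts. The part of these in the stage differences was not tested.

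Trp53inp1 fell over the interval, from 65.1, 35.5 and 61.9 CPM at E5.0 through 37.6, 27.2 and 39.5 at E5.5 to 17.9, 19.2 and 31.7 at E6.0. Its E6.0 against E5.0 log2 fold change was -1.26 ± 0.27 (adjusted p 0.0047), called under every alternative, with no overlap. Sesn1 was at 11.05, 9.42 and 8.99 CPM at E5.0 and at 3.81, 6.66 and 3.62 at E6.0, a change of -1.07 ± 0.36 (adjusted p 0.0463). Mcl1 fell by 0.41 ± 0.11 (adjusted p 0.0135), to 238, 244 and 248 CPM at E6.0 from 344, 292 and 323 at E5.0. Bcl2l11 fell by 0.52 ± 0.16 (adjusted p 0.0351).

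The last 3 calls were less stable than that of Trp53inp1. Sesn1 lost its call without E5.0 embryo 1, 2 or 4 or E6.0 embryo 1 or 3 (adjusted p 0.0617 to 0.183). Mcl1 lost it without E5.0 embryo 1 or any 1 of the E6.0 embryos (0.0525 to 0.0616), and Bcl2l11 without E5.0 embryo 1 or 2 or any 1 of the E6.0 embryos (0.0723 to 0.129). With the 2 groups alone Sesn1 (adjusted p 0.0613) and Bcl2l11 (adjusted p 0.0625) also lost their calls, as did Sesn1 without the filter (adjusted p 0.103).

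The other calls were Btg2 and Gadd45a, both with their lowest mean at E5.5. Btg2 was at 6.58, 3.92 and 4.44 CPM at E5.0, 2.15, 1.49 and 5.04 at E5.5 and 9.85, 10.1 and 10.3 at E6.0, and rose from E5.5 to E6.0 by 1.79 ± 0.44 (adjusted p 0.0363). That call was lost without E5.5 embryo 1 or 2 or any 1 of the E6.0 embryos (adjusted p 0.109 to 0.132). Gadd45a was at 12.8, 20.4 and 10.8 CPM at E5.0 and at 5.08, 7.45 and 6.90 at E5.5, a change of -1.18 ± 0.33 (adjusted p 0.0462) that was lost without E5.0 embryo 1 or 2 or any 1 of the E5.5 embryos (adjusted p 0.0524 to 0.151).

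Some members missed the threshold with groups that did not overlap. Bcl2 was at 0.372, 0.785 and 0.600 CPM at E5.0 and at 3.50, 1.03 and 3.17 at E5.5, with a log2 fold change of 2.13 ± 0.74 (adjusted p 0.101). Bmf was at 13.7 ± 1.73 CPM at E5.0 and 20.8 ± 2.43 at E5.5 (SD, n = 3 each), with 0.60 ± 0.23 (adjusted p 0.145). Cdkn1a, at 10.8, 2.75 and 13.3 CPM at E5.0, overlapped the E5.5 embryos, with -1.16 ± 0.52 (adjusted p 0.201).

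**Figure D5:**
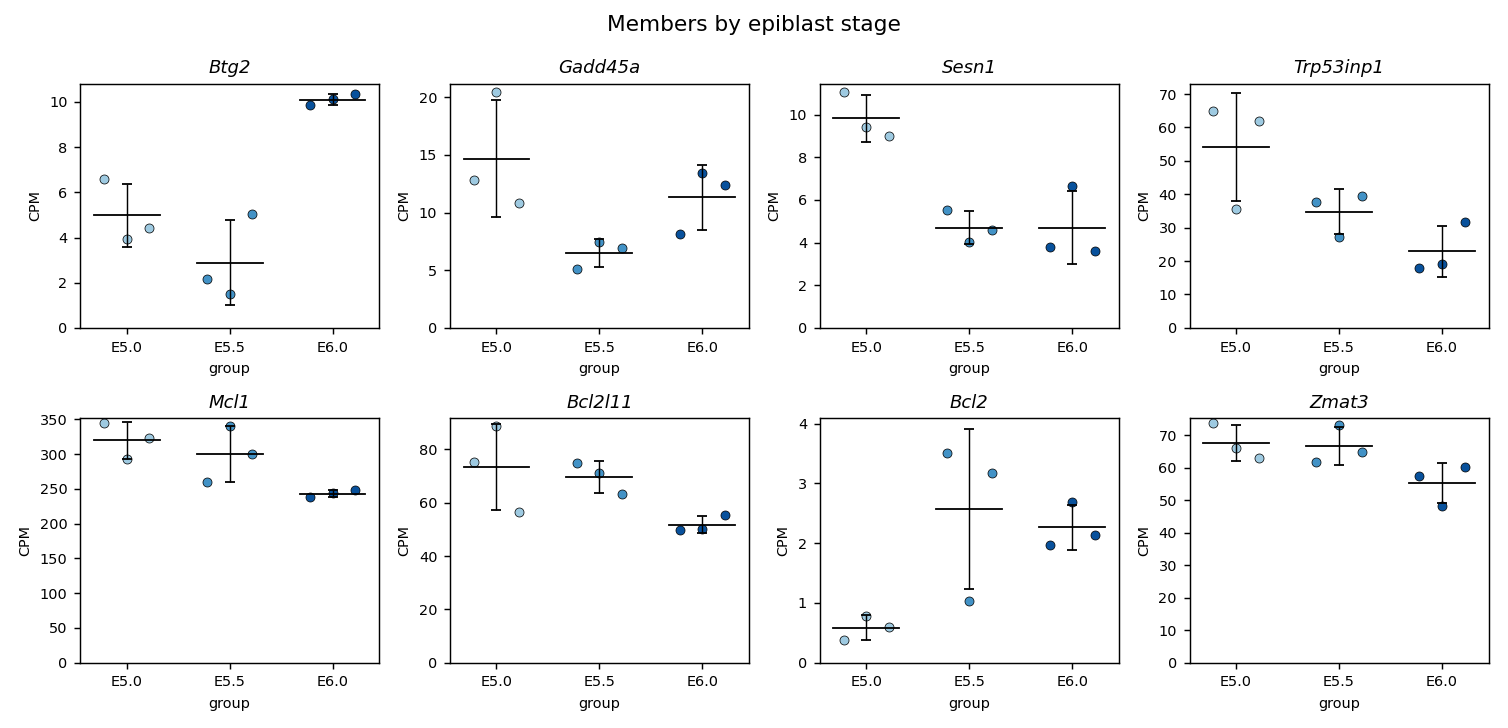
Level in CPM (vertical axis, linear, from 0) of Btg2, Gadd45a, Sesn1, Trp53inp1, Mcl1, Bcl2l11, Bcl2 and Zmat3 in each epiblast (horizontal axis, stages E5.0, E5.5 and E6.0); points are embryos, lines are means and bars the SD. Trp53inp1 and Mcl1 lie lower at E6.0 than at E5.0, and the 3 E6.0 embryos lie above all others for Btg2.

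Of 15 p53 targets outside the set 4 fell from E5.0 to E6.0 and none rose, or 26.7% called where 21.8% of all genes were. Plk3, a stress-responsive kinase, went from 27.7 to 5.44 CPM (-2.36 ± 0.37, adjusted p 0.000506), Pidd1, a scaffold of caspase-2, from 55.0 to 18.02 CPM (-1.62 ± 0.20, adjusted p 8.21e-05) and Sfn from 21.7 to 10.6 CPM (-1.04 ± 0.29, adjusted p 0.0202). Of 12 tested further regulators 3 rose and 1 fell (33.3%), and of 20 caspases and their regulators 3 fell (15%). Xiap, an inhibitor of caspases, fell by 0.82 ± 0.23 (adjusted p 0.021), and Aifm1, a mitochondrial flavoprotein gene, by 0.69 ± 0.17 (adjusted p 0.00956).

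Some samples were the highest or lowest of their group for many members. Outside FS a group holds 3 samples, so a share of the highest and lowest places falls to each sample in any case. Ties, as where Fas had no count, went to the first sample. The same counts over all genes were not taken, and whether any sample stands apart was not tested. AF passage 15 was the highest AF sample for 8 of the 13 cell cycle and stress targets and for 18 of the 38 members. FS line 2 passage 12 was the highest FS sample for 8 of the 13 and 16 of the 38. E5.0 embryo 2 was the lowest E5.0 embryo for 8 of the 13 and 19 of the 38, and E5.5 embryo 3 the highest of its stage for 8 of the 13 and 20 of the 38. AFX passage 16 was the lowest AFX sample for 6 of the 13 and 21 of the 38. E6.0 embryo 1 was the lowest of its stage for 7 of the 13 and 20 of the 38, and E6.0 embryo 3 the highest for 8 of the 13 and 17 of the 38. E5.0 embryo 2 also held the highest summed visceral endoderm marker level, 772 CPM, against 608 in embryo 1 and 219 in embryo 4.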

How the data were processed

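Gene-level raw counts for 21 samples were taken from the table deposited by the authors. Per the submitters' processing notes it came from Trim Galore, TopHat2 2.1.0 and featureCounts 1.5.0 on mm10. The annotation and whether counting used strand are not given in the sources used here. RNA was prepared with a PicoPure kit, per the labels' protocols. The 38 members, the other gene lists and the comparisons were chosen with earlier results of these data known.

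The tests were those of edgeR 4.0.16 (R 4.3.3): filterByExpr by the groups of the fit, TMM scaling, robust dispersions and quasi-likelihood F-tests (two-sided), Benjamini-Hochberg over all genes tested, and a call at an adjusted p under 0.05. Comparisons within culture drew on the 12 cultured samples, stage comparisons the 9 epiblasts, and culture against epiblast all 21. Pmaip1 was left out of counts of members wherever FS or E6.0 was compared, E6.0 in place of E5.5 included. Fas, Pmaip1, Cdkn2a and Bcl2l14 passed the filter only through the side where they are high and were left out of the report's counts of calls there. Bik (culture), Bcl2 and Tradd (epiblasts) also did in some comparisons but were not called, and stay among the genes tested. FS against E6.0 is given without p-values or counts. A fold is given as a bound, against 3 counts per library, where a group held no count. Genes outside the set are named from fixed lists, at most 3 per list and comparison, those with the largest change among the called. No batch is given in the labels. Replicate numbers were not used to pair samples. Alternatives were DESeq2 1.42.0 size factors and Wald test, no filter, the groups alone, each FS line alone, each sample left out, a replicate block and, added after seeing the data, E5.0 or E6.0 in place of E5.5. E6.0 took that place for AF and AFX only. Positions and exon overlaps are from GENCODE M21 (GRCm38), promoter sequences from RefSeq (GRCm38.p6). Figures were drawn with matplotlib 3.10.9.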

Additional observations from a re-analysis of the deposited data

Results flagged for a closer look

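Bax in FS cells had 1 sample far from the others. FS line 1 passage 11 stood at 19.7 CPM, while the other 5 FS samples lay between 23.6 and 25.5 CPM. Of 38 members examined in FS, the one group large enough for this check, 1 was marked, and chance marks about 1 group in 20. With or without that sample Bax was lower in FS than at E5.5.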

How the results depend on the processing

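Counts of called members for cultured samples against epiblasts stayed within 1.5 times of the main value. Over all alternatives the count of called members was 23 to 28 in AF (main 29), 25 to 30 in AFX (main 30) and 25 to 29 in FS (main 29), where these counts hold Fas and, in AF and AFX except against E6.0, Pmaip1. Directions that turned, none of them called after the turn, were Trp53 in FS against AF at 0.002 without AF passage 14 and 0.054 without passage 16 (-0.241 to 0.054 with any 1 sample left out), Cdkn1a in FS against AF at -0.126 without AF passage 14 (-0.126 to 0.27), Bbc3 in AF against E5.5 at -0.211 without AF passage 15 (-0.211 to 1.142), and Sesn1 in AF at -0.037 and Gadd45a in AFX at -0.001 against E5.0 in place of E5.5. Trp53 in AFX against E5.5 turned to 0.055 without AFX passage 14, 0.005 without E5.5 embryo 3 (-0.241 to 0.055) and 0.104 against E5.0. With E5.0 in place of E5.5, calls were lost for Bad, Gadd45a, Hrk, Sesn1 and Trp53 in AF, Ei24, Gadd45a and Sesn1 in AFX, and Bad, Bid, Bmf and Trp53 in FS. With E6.0 they were lost for Bad, Bcl2l1, Bcl2l11, Gadd45a, Hrk and Trp53 in AF and for Bak1, Bax, Bcl2l1, Bcl2l11, Casp8 and Gadd45a in AFX. Against E5.5, calls were also lost with the 2 groups alone (Bad, Bcl2l2 and Trp53 in AF, Bid in FS), without the filter (Bok in AF, Casp9 in AFX, Bid in FS), with DESeq2 size factors (Trp53 in AF, Bid in FS), with FS line 1 alone (Bak1, Bid and Mdm2) and with FS line 2 alone (Bad, Bid, Bmf and Trp73).

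Smaller counts moved more. FS against AF had 9 called members, 15 by the DESeq2 Wald test, 5 with FS line 1 alone, 11 with FS line 2 alone and 3 to 12 with a sample left out. FS against AFX had 0, with 2 by the Wald test, 2 with the 2 groups alone, 4 with FS line 2 alone and 0 to 1 with a sample left out. AFX against AF had 5 and 4 to 7 with a sample left out, and the FS lines had 1, with 4 without the filter, 3 by the Wald test, 3 with the 2 groups alone and 1 to 2 with a sample left out. E5.5 against E5.0 had 1, with 3 without the filter, 2 by the Wald test, 0 with the 2 groups alone and 0 to 2 with a sample left out. E6.0 against E5.5 had 1, with 3 with the 2 groups alone and 0 to 1 with a sample left out. E6.0 against E5.0 had 4, with 2 with the 2 groups alone and 1 to 6 with a sample left out. The cause was not tested.

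Genes of the whole table past the threshold also moved by over 1.5 times in some fits: FS against AFX 820 and 830 (main 1397) without AFX passage 16 or 15, AFX against AF 732 and 922 (main 1401) without AFX passage 15 or 14, the FS lines 316 to 1298 (main 618), E5.5 against E5.0 371 to 1659 (main 971), E6.0 against E5.5 238 to 1445 (main 631) and E6.0 against E5.0 1905 to 3664 (main 3100).

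With the passage or embryo number as a replicate block, called members were 6 in AFX against AF, 2 in E5.5 against E5.0, 1 in E6.0 against E5.5 and 3 in E6.0 against E5.0, where Sesn1 (adjusted p 0.126) and Mcl1 (adjusted p 0.0584) lost their calls. Samples with the same number did not deviate together (r of -0.125, -0.093 and 0.196 for AF with AFX, and -0.048 to 0.102 among epiblasts), and not every sample correlated best with its own number. Depth limits Pmaip1 in culture and Fas in epiblasts, where counts were few or 0.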
